A study of Mus musculus with 18 samples.

Results

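Clustered protocadherins were followed in the hypothalamus of hypertensive BPH/2J and normotensive BPN/3J mice, by taking every probeset whose gene symbols in the platform annotation all belong to the *Pcdha*, *Pcdhb* or *Pcdhg* clusters. This gave 23 of the 34760 probesets of the Affymetrix Mouse Gene 1.0 ST array, and together they carry 36 gene symbols on chromosome 18. The alpha cluster is read by 1 probeset, which carries 14 symbols (*Pcdha1* to *Pcdha12*, *Pcdhac1* and *Pcdhac2*) and is called the shared alpha probeset. The beta cluster is read by 22 probesets, 1 for each of *Pcdhb1* to *Pcdhb22*. None of the 22 gamma symbols of RefSeq was paired with a probeset in the platform table, in which 11799 probesets are not listed with a gene, so the gamma cluster was not analysed here.

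Protocadherins are cadherin-like adhesion molecules of the cell surface that bind copies of themselves on neighbouring cells. In the clustered group each gene or variable exon has its own promoter, and a neuron switches on a small and partly random selection of them, which gives it a surface identity by which its own branches recognise and avoid each other. Alpha and gamma variable exons are spliced to constant exons shared within their cluster, whereas every beta gene is a complete coding exon of its own with no shared constant part. The choice of promoter depends on DNA methylation and on looping of the locus by the CTCF protein and the cohesin ring. The beta genes are close relatives in sequence, so their probesets may share signal and each is uncertain to that extent. No function particular to a single beta gene is stated here.

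Each array held RNA from the hypothalamus of 1 male mouse. BPH/2J and BPN/3J are inbred strains of the Schlager colony, bred for high and for normal blood pressure (BP), and carry no transgene. At ‘trough’ BP, in the inactive phase, there were 3 BPH/2J mice (numbers 1, 2 and 3) and 3 BPN/3J mice (1, 3 and 4). At ‘peak’ BP, in the active phase, there were 6 BPH/2J mice (4 to 9) and 6 BPN/3J mice (5, 6, 7, 8, 10 and 11). ‘Trough’ mice were 18 weeks old by their sample labels and 19 by the series description, and ‘peak’ mice were 26 weeks old, so time of day and age cannot be told apart. A further label on the BPN/3J ‘trough’ mice names the strain BPH/2J, and their titles were followed. The study describes dissection of the paraventricular and dorsomedial nuclei, while the labels name the hypothalamus.

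The values are log2 intensities after RMA normalization, so a difference of 1 is a doubling. Array medians lay between 6.17 and 6.42 in all 4 groups. Arrays correlated between 0.95 and 0.99 over all probesets, and 0 pairs of arrays were identical. Marker genes of neurons averaged 11.12 to 11.39 per mouse. BPN/3J ‘trough’ mouse 3 stood apart with a mean of 9.37 over 4 pituitary markers, against 5.33 to 6.78 in the other mice. The mean of 3 markers of cortex and hippocampus was 7.39 in BPN/3J ‘trough’ mouse 4 and 7.76 in BPN/3J ‘peak’ mouse 8, against 5.54 to 6.57 in the others. The mean of 4 choroid plexus markers ran from 6.03 to 10.02 and varied widely within every group. The part of these tissues in the results below was not tested, and counts without each mouse are given where they change.

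All 18 arrays entered a single limma fit with a mean for each group, and Benjamini-Hochberg adjustment ran over the whole array. A probeset is said to rise, to fall or to pass when its adjusted p was under 0.05. A bulk value cannot tell fewer cells expressing a gene from less RNA per cell. The mean log2 level of the 23 probesets lay between the 37.0 and the 69.7 percentile of all probesets on the array, at *Pcdhb1* and *Pcdhb3*. Levels of different probesets are not compared. The sequences of the probes and of the genomes of the BPH/2J and BPN/3J strains were not used here. Whether sequence variants between the strains lie under the probes, which can shift a strain difference of a probeset such as *Pcdhb6* or *Pcdhb9*, was not tested.

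**Figure D1:**
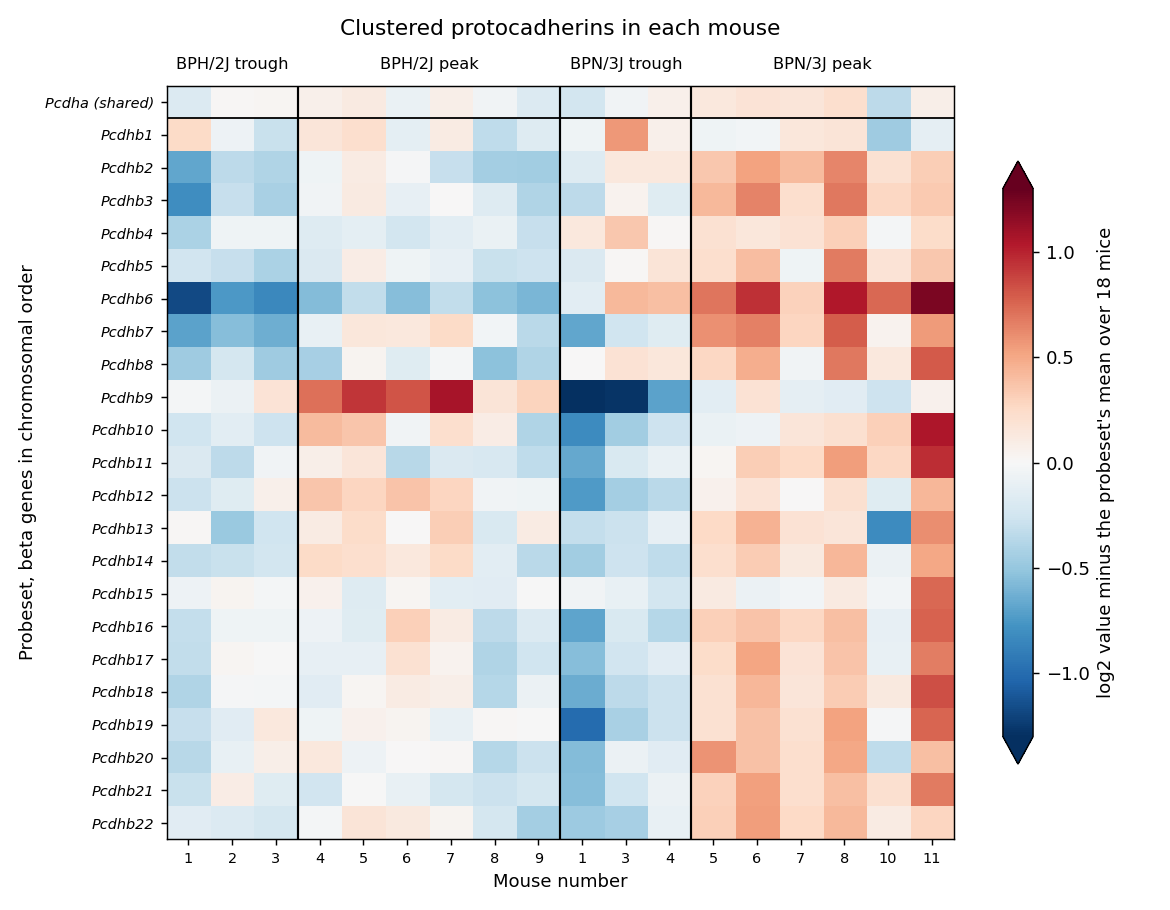
Heat map of the 23 probesets (rows, beta genes in chromosomal order) in the 18 mice (columns, by group and mouse number), where the colour gives the log2 value minus the mean of that probeset over all mice. Most beta rows are red in the BPN/3J mice at ‘peak’ BP, *Pcdhb6* is blue in all 9 BPH/2J mice, and *Pcdhb9* is blue in the 3 BPN/3J ‘trough’ mice.

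Beta protocadherins rose from ‘trough’ to ‘peak’ BP in the normotensive strain. Of the 22 beta probesets 15 passed with higher values at ‘peak’ BP in BPN/3J and 0 with lower values, while 12.9% of all probesets on the array passed as higher and 12.4% as lower. The rises ran from 0.55 to 1.15 on the log2 scale, or 1.46- to 2.21-fold. The median beta difference was 0.62, against -0.01 over all probesets, and 21 differences were positive and 1 negative, beside 48.6% and 51.4% of all probesets. At an unadjusted p under 0.05 there were 17 higher and 0 lower beta probesets, beside 19.5% and 20.4%. In 14 of the 22 the lowest of the 6 ‘peak’ mice lay above the highest of the 3 ‘trough’ mice, a pattern found in 11.6% of all probesets, and in 0 the groups were apart the other way (9.26% of all probesets). The genes that rose were *Pcdhb3*, *Pcdhb6*, *Pcdhb7*, *Pcdhb9*, *Pcdhb10*, *Pcdhb11*, *Pcdhb12*, *Pcdhb14* and the whole run from *Pcdhb16* to *Pcdhb22*. *Pcdhb1*, *Pcdhb2*, *Pcdhb4*, *Pcdhb5*, *Pcdhb8*, *Pcdhb13* and *Pcdhb15* did not pass, and *Pcdhb1* was the only beta probeset with a negative difference, of -0.25.

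The rise in BPN/3J leaned on ‘trough’ mouse 1, which had the lowest mean over the beta probesets of all 18 mice. Its mean log2 value was 6.38, against 6.70 and 6.73 in the other BPN/3J ‘trough’ mice and 6.87 to 7.43 in the BPN/3J ‘peak’ mice. Without it 9 probesets passed (*Pcdhb7*, *Pcdhb9*, *Pcdhb12*, *Pcdhb14*, *Pcdhb16*, *Pcdhb18*, *Pcdhb19*, *Pcdhb21* and *Pcdhb22*) and the median beta difference was 0.51. Of all probesets 6.03% then passed as higher, against 12.9% with all mice. ‘Trough’ mouse 1 also had the highest array median of the 18 mice, at 6.42. Its mean was the lowest too over 12 non-clustered protocadherins (8.06) and 19 classical cadherins (7.75). It was also lowest over 23 regulators of the locus (8.24) and 17 signalling partners (9.45), lists given below. It was not the lowest over 10 neuronal markers (11.33) or 18 neighbours of the locus (7.56). Without ‘trough’ mouse 3, the mouse with high pituitary markers, 13 passed, beside 7.16% of all probesets. Without ‘trough’ mouse 4 there were 15, and without ‘peak’ mouse 8 there were 14, beside 12.3% and 10.9%. At ‘peak’ BP the beta mean was lowest in mouse 10, in which 11 of the 22 probesets lay above their own mean over all mice, against 18 to 21 in the other BPN/3J ‘peak’ mice.

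In the hypertensive strain the same comparison gave 1 call, a count that changed with the setting. *Pcdhb7* rose by 0.63 in BPH/2J, and 0 beta probesets fell, against 4.25% of all probesets called higher and 4.39% called lower. The median beta difference was 0.13, and 18 of 22 differences were positive and 4 negative, beside 46.9% and 53.1% of all probesets. At an unadjusted p under 0.05 there were 6 higher beta probesets and 0 lower ones, beside 11.3% and 11.7% of all probesets. The ranges of the groups were apart for *Pcdhb6* and *Pcdhb7*, both higher at ‘peak’ BP, a pattern seen in 8.19% of all probesets, and for 0 in the other direction (9.55%). Among BPH/2J ‘peak’ mice the beta mean ran from 6.63 to 6.96, and mice 8 and 9 had 3 and 2 probesets above their own mean, whereas mice 4 to 7 had 9 to 15. Without mouse 9 there were 4 calls, *Pcdhb3*, *Pcdhb7*, *Pcdhb9* and *Pcdhb14*. Without BPH/2J ‘peak’ mouse 8, or without BPN/3J ‘trough’ mouse 1 or 4, which enter through the shared spread, there were 2 calls, *Pcdhb7* and *Pcdhb9*. Without any 1 of the 3 BPH/2J ‘trough’ mice there were 0, where 1.1% to 2.21% of all probesets passed as higher. There were 9 calls with array weights, 8 with the lower-numbered ‘peak’ mice only and 5 with a term for the higher-numbered ones, where 13.3%, 10.3% and 10.7% of all probesets passed as higher.

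*Pcdhb7* was the beta gene that rose in both strains. In BPH/2J its log2 values at ‘trough’ BP were 7.01, 7.15 and 7.07 in mice 1, 2 and 3, and at ‘peak’ BP they ran from 7.35 through a median of 7.75 to 7.95. In BPN/3J they were 7.03, 7.45 and 7.55 in mice 1, 3 and 4, and at ‘peak’ BP 7.74 to 8.49 with a median of 8.27. In neither strain did the times overlap. The rise was 0.63 (SE 0.16, adjusted p = 0.0206) in BPH/2J and 0.84 (SE 0.16, adjusted p = 0.00221) in BPN/3J. The call in BPH/2J was lost without any 1 of the 3 ‘trough’ mice, with adjusted p of 0.0564 to 0.103.

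*Pcdhb9* had the largest rise of the cluster in BPN/3J, from a low level. Its mean lay at the 43.5 percentile of all probesets. Its mean in the BPN/3J ‘trough’ mice was 4.63, below the lowest array median of 6.17. Its values at ‘trough’ BP were 4.18, 4.57 and 5.15 in BPN/3J mice 1, 3 and 4, and all 6 ‘peak’ mice were above these, at 5.58 to 6.03 with a median of 5.72. The difference was 1.15 (SE 0.20, adjusted p = 0.00151), or 2.21-fold. In BPH/2J the values were 5.82, 5.77 and 6.02 at ‘trough’ BP and 6.01 to 6.92 with a median of 6.61 at ‘peak’ BP. These groups met at 1 ‘peak’ mouse, number 8, and the difference of 0.64 (SE 0.20, adjusted p = 0.0597) did not pass. It passed without BPH/2J ‘peak’ mouse 8 (adjusted p = 0.0245) or 9 (0.0372) and without BPN/3J ‘trough’ mouse 1 (0.0384) or 4 (0.0335).

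**Figure D2:**
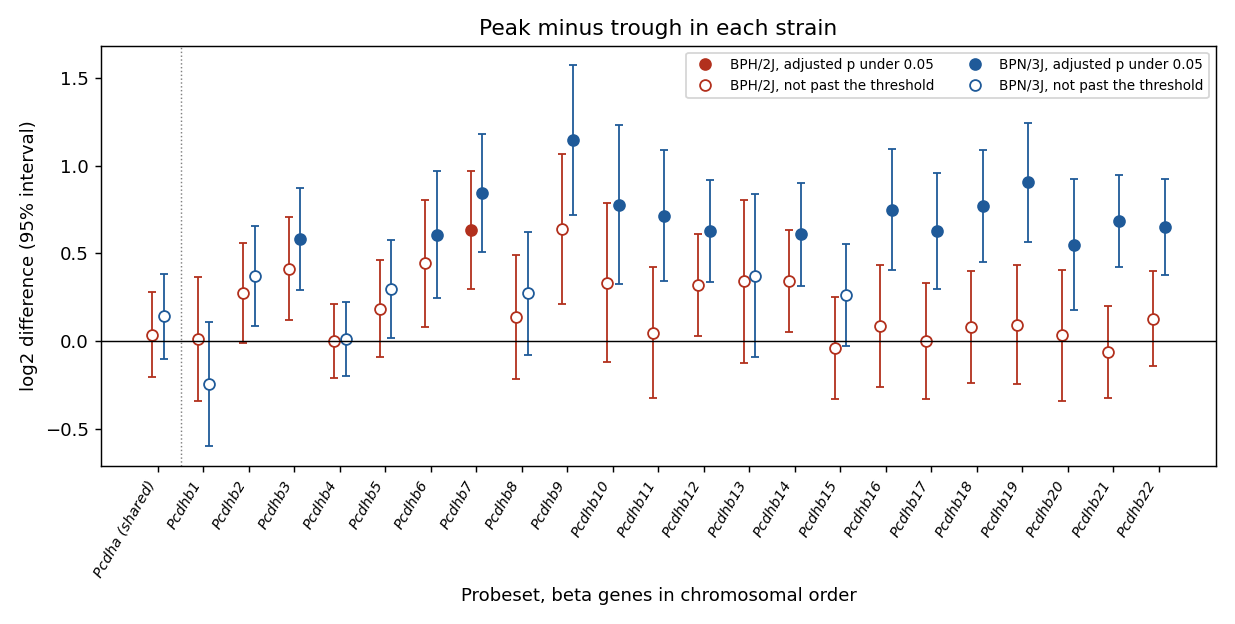
Difference ‘peak’ minus ‘trough’ BP on the log2 scale (vertical axis) for each probeset in chromosomal order (horizontal axis), in BPH/2J (red) and BPN/3J (blue), with 95% intervals and filled points where the adjusted p was under 0.05. From *Pcdhb16* to *Pcdhb22* the 7 BPN/3J points are filled and lie between 0.55 and 0.90, and the 7 BPH/2J points are open and lie between -0.06 and 0.13.

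The order of the genes on the chromosome follows their numbers, and 3 stretches between *Pcdhb1* and *Pcdhb22* are described by it. These stretches were chosen after their values had been seen, so their counts are a description. In *Pcdhb16* to *Pcdhb22* all 7 probesets rose in BPN/3J, with a median of 0.68, and 0 of 7 passed in BPH/2J, with a median of 0.08. Of these, *Pcdhb17* did not pass in BPN/3J without its ‘trough’ mouse 1. *Pcdhb20*, whose times overlapped in BPN/3J, failed there without ‘trough’ mouse 1 or 3 or ‘peak’ mouse 5, 6 or 8 (adjusted p up to 0.193). In *Pcdhb10* to *Pcdhb15* 4 of 6 rose in BPN/3J and 0 passed in BPH/2J, with medians of 0.62 and 0.33. In *Pcdhb2* to *Pcdhb8* 3 of 7 rose in BPN/3J and 1 in BPH/2J, with medians of 0.37 and 0.28. Whether the change with time differed between the strains is the comparison *d*, given below, which called 0 probesets.

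The shared alpha probeset did not pass in any comparison over all 18 arrays. With the lower-numbered ‘peak’ mice only (BPH/2J 4 to 7, BPN/3J 5 to 8) it passed as higher over time in BPN/3J (0.24, adjusted p = 0.0447). Its log2 values were 7.14, 7.33 and 7.35 in BPH/2J mice 1, 2 and 3 and 7.08, 7.28 and 7.39 in BPN/3J mice 1, 3 and 4 at ‘trough’ BP. At ‘peak’ BP they were 7.14 to 7.43 with a median of 7.33 in BPH/2J and 6.98 to 7.54 with a median of 7.46 in BPN/3J. All 4 groups overlapped. The change with time was 0.04 in BPH/2J (95% interval -0.21 to 0.28, adjusted p = 0.896) and 0.14 in BPN/3J (-0.10 to 0.38, adjusted p = 0.379). BPH/2J minus BPN/3J was -0.08 at ‘peak’ BP (-0.28 to 0.12, adjusted p = 0.879) and 0.02 at ‘trough’ BP (-0.25 to 0.30, adjusted p = 0.964). The sign in BPH/2J over time turned without BPH/2J ‘trough’ mouse 1 (-0.03), and that at ‘trough’ BP ran from -0.06 to 0.10 as mice were left out. One mouse, BPN/3J ‘peak’ mouse 10, lay at 6.98 while the other 5 of its group lay between 7.40 and 7.54.

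At ‘peak’ BP several beta protocadherins were lower in the hypertensive than in the normotensive strain. *Pcdhb2*, *Pcdhb3*, *Pcdhb4*, *Pcdhb6*, *Pcdhb8* and *Pcdhb21* passed as lower in BPH/2J, by 0.35 to 1.31 on the log2 scale (1.28- to 2.47-fold), and *Pcdhb9* passed as higher, by 0.73 (1.66-fold). These are 6 lower and 1 higher of 22, where 0.713% of all probesets passed as lower and 0.616% as higher. Of the 22 differences 19 were negative and 3 positive, beside 51.8% and 48.2% of all probesets, and their median was -0.38 against -0.01. At an unadjusted p under 0.05 there were 15 lower and 1 higher, beside 5.98% and 3.95%. The 6 mice of BPH/2J all lay below the 6 of BPN/3J for 6 probesets, beside 0.826% of all probesets, namely *Pcdhb2*, *Pcdhb3*, *Pcdhb4*, *Pcdhb6*, *Pcdhb18* and *Pcdhb21*. Groups of *Pcdhb8* and *Pcdhb9* overlapped although both passed.

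Single mice moved this count. Without BPN/3J ‘peak’ mouse 8, which had high cortex and hippocampus markers, 3 probesets passed (*Pcdhb2*, *Pcdhb6* and *Pcdhb21*). Without BPH/2J ‘peak’ mouse 4, 8 or 9 or BPN/3J ‘peak’ mouse 6 there were 4, and without BPN/3J ‘peak’ mouse 10 there were 8. *Pcdhb2*, *Pcdhb6* and *Pcdhb21* passed whichever mouse was left out. *Pcdhb4* failed without any of 11 of the 12 ‘peak’ mice, with adjusted p up to 0.0966. *Pcdhb9* failed without BPH/2J mouse 4, 5, 6 or 7 or BPN/3J mouse 5, 7, 8 or 10, with adjusted p up to 0.0892. *Pcdhb3* failed without BPH/2J mouse 8 or 9 or BPN/3J mouse 6 or 8 (up to 0.0610), and *Pcdhb8* also without BPH/2J mouse 4 (up to 0.0652).

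*Pcdhb6* had the largest strain difference of the cluster at ‘peak’ BP. Its log2 values were 6.33 to 6.60 with a median of 6.38 in BPH/2J and 7.22 to 8.15 with a median of 7.77 in BPN/3J. The strains were apart by more than the range of the BPH/2J mice. BPH/2J was lower by -1.31 (SE 0.14, adjusted p = 2.3e-05), or 2.47-fold. It was also lower at ‘trough’ BP, where the values were 5.74, 6.17 and 6.08 in BPH/2J mice 1, 2 and 3 and 6.78, 7.34 and 7.31 in BPN/3J mice 1, 3 and 4. No BPH/2J mouse at either time reached the lowest BPN/3J mouse. The ‘trough’ difference was -1.14 (SE 0.20, adjusted p = 0.0101), and it did not pass without BPH/2J ‘trough’ mouse 1 (-1.01, adjusted p = 0.0632) or BPN/3J ‘trough’ mouse 3 (-1.04, adjusted p = 0.0703). *Pcdhb6* also rose with time in BPN/3J by 0.61 (SE 0.17, adjusted p = 0.0184), but not without BPN/3J ‘trough’ mouse 1 (0.43, adjusted p = 0.140).

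*Pcdhb9*, whose level in BPN/3J at ‘trough’ BP was low as given above, differed in the opposite direction. At ‘trough’ BP the 3 BPH/2J values of 5.82, 5.77 and 6.02 all lay above the 3 BPN/3J values of 4.18, 4.57 and 5.15, and the difference was 1.24 (SE 0.23, adjusted p = 0.0191), or 2.36-fold. At ‘peak’ BP the difference was 0.73 (SE 0.17, adjusted p = 0.0330), with BPH/2J mouse 8 at 6.01 just below BPN/3J mouse 6 at 6.03. *Pcdhb9* was thus the beta gene that passed as higher in BPH/2J at both times. The ‘trough’ call was lost without any of the 3 BPH/2J mice (adjusted p = 0.0625, 0.0645 and 0.131) and without BPN/3J mouse 1 (0.130) or 3 (0.0920).

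In the stretch around *Pcdhb6*, chosen after its values had been seen, *Pcdhb2*, *Pcdhb3*, *Pcdhb4*, *Pcdhb6* and *Pcdhb8* passed as lower in BPH/2J at ‘peak’ BP and only *Pcdhb6* did at ‘trough’ BP. *Pcdhb5* and *Pcdhb7* passed at neither time. All 7 probesets from *Pcdhb2* to *Pcdhb8* had negative strain differences at both times, with medians of -0.53 at ‘peak’ and -0.36 at ‘trough’ BP. For *Pcdhb2* the means at ‘peak’ BP were 7.39 ± 0.23 (SD, n = 6) in BPH/2J and 7.99 ± 0.16 (n = 6) in BPN/3J, a difference of -0.60 (SE 0.11, adjusted p = 0.00651). At ‘trough’ BP its values were 6.91, 7.24 and 7.20 in BPH/2J and 7.42, 7.72 and 7.72 in BPN/3J, with no overlap, and the difference of -0.51 did not pass (adjusted p = 0.242). *Pcdhb8* differed by -0.63 at ‘peak’ (SE 0.14, adjusted p = 0.0225) and -0.50 at ‘trough’ BP (adjusted p = 0.391). Mean values over the stretch were 6.91 to 7.31 per mouse in BPH/2J and 7.49 to 7.99 in BPN/3J at ‘peak’ BP. At ‘trough’ BP they were 6.66 to 6.94 and 7.11 to 7.43. These means of the strains did not overlap at either time.

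**Figure D3:**
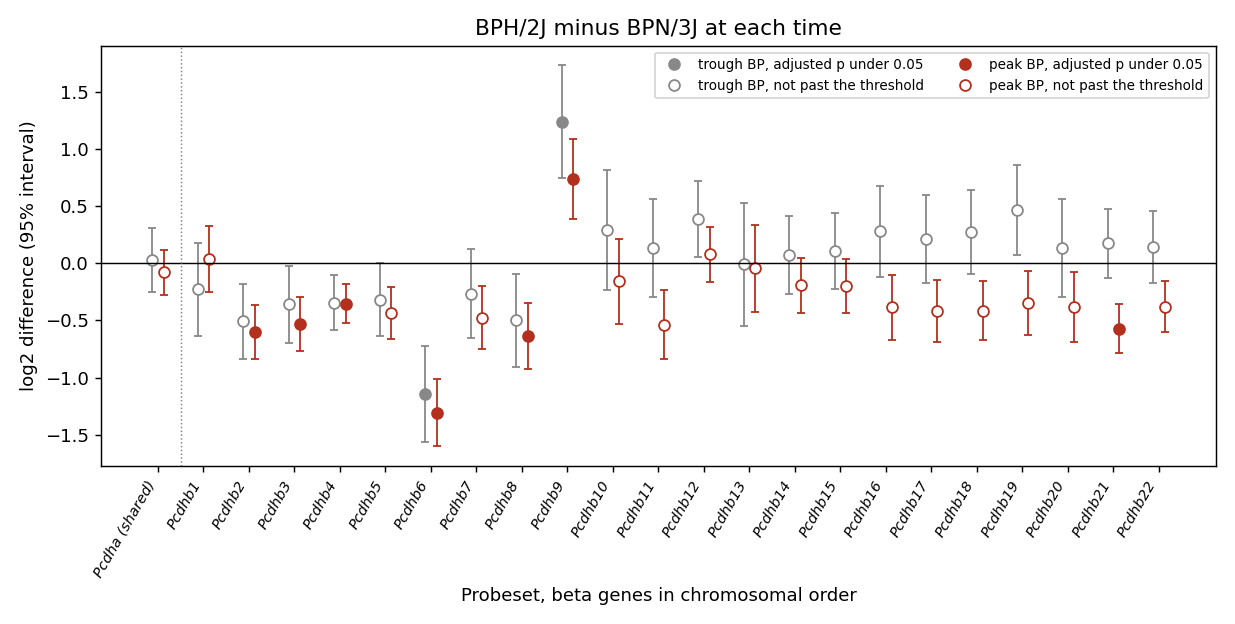
Difference BPH/2J minus BPN/3J on the log2 scale (vertical axis) for each probeset in chromosomal order (horizontal axis) at ‘trough’ (grey) and ‘peak’ BP (red), with 95% intervals and filled points where the adjusted p was under 0.05. From *Pcdhb2* to *Pcdhb8* both points lie below 0, from *Pcdhb16* to *Pcdhb22* the ‘trough’ points lie above 0 and the ‘peak’ points below it, and *Pcdhb9* lies above 0 at both times.

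At ‘trough’ BP the strains differed in 2 beta probesets, *Pcdhb6* (lower in BPH/2J) and *Pcdhb9* (higher), each 1 of 22, where 0.187% of all probesets passed as lower and 0.342% as higher. Of the 22 differences 13 were positive and 9 negative, beside 50.4% and 49.6% of all probesets, and the median was 0.12, or 0.0034 without BPN/3J ‘trough’ mouse 1. Groups of 3 were apart for 5 lower probesets (*Pcdhb2*, *Pcdhb4*, *Pcdhb5*, *Pcdhb6* and *Pcdhb8*) and 2 higher (*Pcdhb9* and *Pcdhb12*), beside 8.73% and 11.1% of all probesets. At an unadjusted p under 0.05 there were 5 lower and 3 higher, beside 5.07% and 5.29%. Without BPH/2J mouse 1 or BPN/3J mouse 3, the mouse with high pituitary markers, 0 probesets passed. Without BPH/2J mouse 2 or 3 or BPN/3J mouse 1, 1 passed, *Pcdhb6*.

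At the far end of the cluster, a stretch chosen after its values had been seen, the strain differences were positive at ‘trough’ and negative at ‘peak’ BP, and 0 probesets passed in the test of that change, *d*. From *Pcdhb16* to *Pcdhb22* the 7 strain differences at ‘trough’ BP were all positive, at 0.14 to 0.46, and 0 passed. Without BPN/3J ‘trough’ mouse 1 they ran from -0.01 to 0.25, with 6 positive and 1 negative, and their median went from 0.21 to 0.10. At ‘peak’ BP all 7 were negative, at -0.57 to -0.35, and *Pcdhb21* passed. The per-mouse mean over this stretch was 6.65, 6.90 and 6.91 in BPH/2J mice 1, 2 and 3 and 6.67 to 7.05 in BPH/2J ‘peak’ mice. In BPN/3J it was 6.31, 6.67 and 6.75 in mice 1, 3 and 4 and 6.94 to 7.58 at ‘peak’ BP. The 2 times were apart in BPN/3J and overlapped in BPH/2J.

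**Figure D4:**
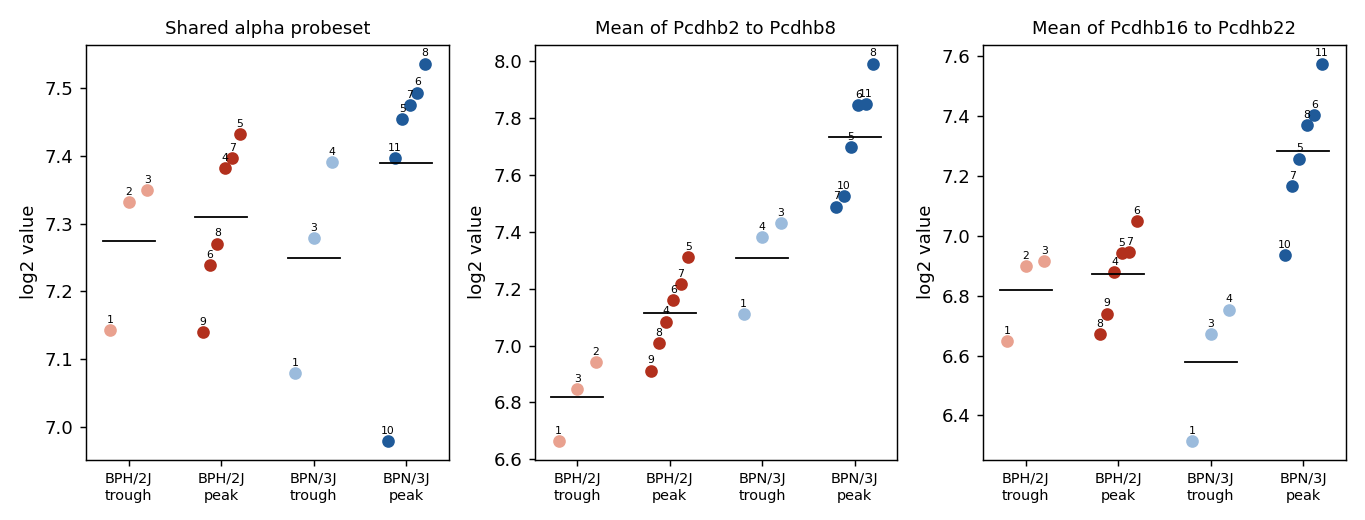
Log2 value per mouse (points, labelled with the mouse number; bars are group means) of the shared alpha probeset and of the mean over *Pcdhb2* to *Pcdhb8* and over *Pcdhb16* to *Pcdhb22*, in the 4 groups. The alpha groups overlap, the strains are apart at each time in the middle panel, and in the right panel the BPN/3J ‘peak’ mice (6.94 to 7.58) lie above the BPN/3J ‘trough’ mice (6.31 to 6.75).

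The quantity *d* is the strain difference at ‘peak’ BP minus that at ‘trough’ BP, and equals the change with time in BPH/2J minus that in BPN/3J. It tests directly whether the strains changed differently. In limma 0 beta probesets passed in *d*, and 0 of all probesets did (0%). Of the 22 values of *d* 21 were negative and 1 positive, beside 52.2% and 47.8% of all probesets, and their median was -0.31 against -0.01. At an unadjusted p under 0.05 there were 7 lower and 0 higher, *Pcdhb11*, *Pcdhb16*, *Pcdhb17*, *Pcdhb18*, *Pcdhb19*, *Pcdhb21* and *Pcdhb22*, beside 4.56% and 3.75% of all probesets. With array weights, which count BPN/3J ‘trough’ mouse 3 at 9.44 and the other 2 mice of its group at 0.41 and 0.64, 4 passed as lower. Of all probesets 1.44% then passed as lower and 1.43% as higher.

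The study's statistic, *aFD*, was computed here by turning *d* into a signed fold. It carries no test and was called at 1.5. The study refers to earlier work for its formula. At this threshold it lists only well-annotated genes, fewer than the 508 probesets called higher and 1552 called lower here. Under *aFD* as computed here 6 beta probesets were called lower and 0 higher, beside 4.46% and 1.46% of all probesets. They were *Pcdhb11*, *Pcdhb16*, *Pcdhb17*, *Pcdhb18*, *Pcdhb19* and *Pcdhb21*. These are the clustered protocadherins that the study lists, chosen on these same arrays, so the count is not independent evidence of their direction. Just below 1.5 in size were *Pcdhb22* at 1.44 and *Pcdhb20* at 1.43, and the smallest inside was *Pcdhb17* at 1.55. The count was 2 without BPN/3J ‘trough’ mouse 1 and 3 without BPN/3J ‘peak’ mouse 11.

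*Pcdhb19* had the largest *d*. Its log2 values at ‘trough’ BP were 6.56, 6.71 and 7.0 in BPH/2J mice 1, 2 and 3 and 5.86, 6.44 and 6.58 in BPN/3J mice 1, 3 and 4. At ‘peak’ BP they were 6.76 to 6.91 with a median of 6.86 in BPH/2J and 6.84 to 7.61 with a median of 7.15 in BPN/3J. BPH/2J ‘peak’ values lay within the range of the BPH/2J ‘trough’ values, while all BPN/3J ‘peak’ mice lay above the BPN/3J ‘trough’ mice. It rose in BPN/3J by 0.90 (SE 0.16, adjusted p = 0.00153, 1.87-fold) and differed by 0.09 in BPH/2J (SE 0.16, adjusted p = 0.790). Its *d* was -0.81 (SE 0.23, adjusted p = 0.589), an *aFD* of 1.76 in size. Without BPN/3J ‘trough’ mouse 1, its lowest value, *d* was -0.60.

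*Pcdhb21* was the only gene of that end that passed between the strains at ‘peak’ BP. Its values there were 6.14 to 6.41 with a median of 6.18 in BPH/2J and 6.62 to 7.09 with a median of 6.76 in BPN/3J, with no overlap. The difference was -0.57 (SE 0.10, adjusted p = 0.00470). At ‘trough’ BP the values were 6.12, 6.51 and 6.25 in BPH/2J and 5.86, 6.15 and 6.34 in BPN/3J, which overlapped. Over time it rose in BPN/3J by 0.68 (SE 0.12, adjusted p = 0.00171) and differed by -0.06 in BPH/2J (SE 0.12, adjusted p = 0.819). Its *d* was -0.75 (SE 0.18, adjusted p = 0.589).

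In *Pcdhb11*, *Pcdhb16*, *Pcdhb17* and *Pcdhb18* the BPN/3J ‘trough’ mice were lowest and the BPN/3J ‘peak’ mice highest on average. *Pcdhb16* measured 7.23, 7.48 and 7.48 at ‘trough’ and 7.20 to 7.84 (median 7.42) at ‘peak’ BP in BPH/2J, and 6.85, 7.34 and 7.17 at ‘trough’ and 7.43 to 8.30 (median 7.88) at ‘peak’ BP in BPN/3J. *Pcdhb17* measured 6.64, 6.99 and 6.96 and then 6.58 to 7.16 (median 6.86) in BPH/2J, and 6.41, 6.72 and 6.82 and then 6.86 to 7.63 (median 7.27) in BPN/3J. In both genes the times overlapped in BPH/2J and were apart in BPN/3J. *Pcdhb18* measured 6.50, 6.88 and 6.87 and then 6.52 to 7.0 (median 6.87) in BPH/2J, and 6.25, 6.56 and 6.62 and then 7.02 to 7.73 (median 7.16) in BPN/3J. *Pcdhb11* measured 6.13, 5.97 and 6.27 and then 5.95 to 6.47 (median 6.11) in BPH/2J, and 5.65, 6.12 and 6.21 and then 6.34 to 7.27 (median 6.60) in BPN/3J. Mouse 11 was the highest BPN/3J ‘peak’ mouse in all 4. Their *d* ran from -0.69 to -0.63, with adjusted p of 0.589 to 0.590. The rises in BPN/3J were 0.71 for *Pcdhb11* (SE 0.18, adjusted p = 0.00958), 0.75 for *Pcdhb16* (SE 0.16, adjusted p = 0.00494), 0.63 for *Pcdhb17* (SE 0.16, adjusted p = 0.0102) and 0.77 for *Pcdhb18* (SE 0.15, adjusted p = 0.00282). Those of *Pcdhb11* (0.54, adjusted p = 0.0790) and *Pcdhb17* (0.51, adjusted p = 0.0745) did not pass without BPN/3J ‘trough’ mouse 1.

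**Figure D5:**
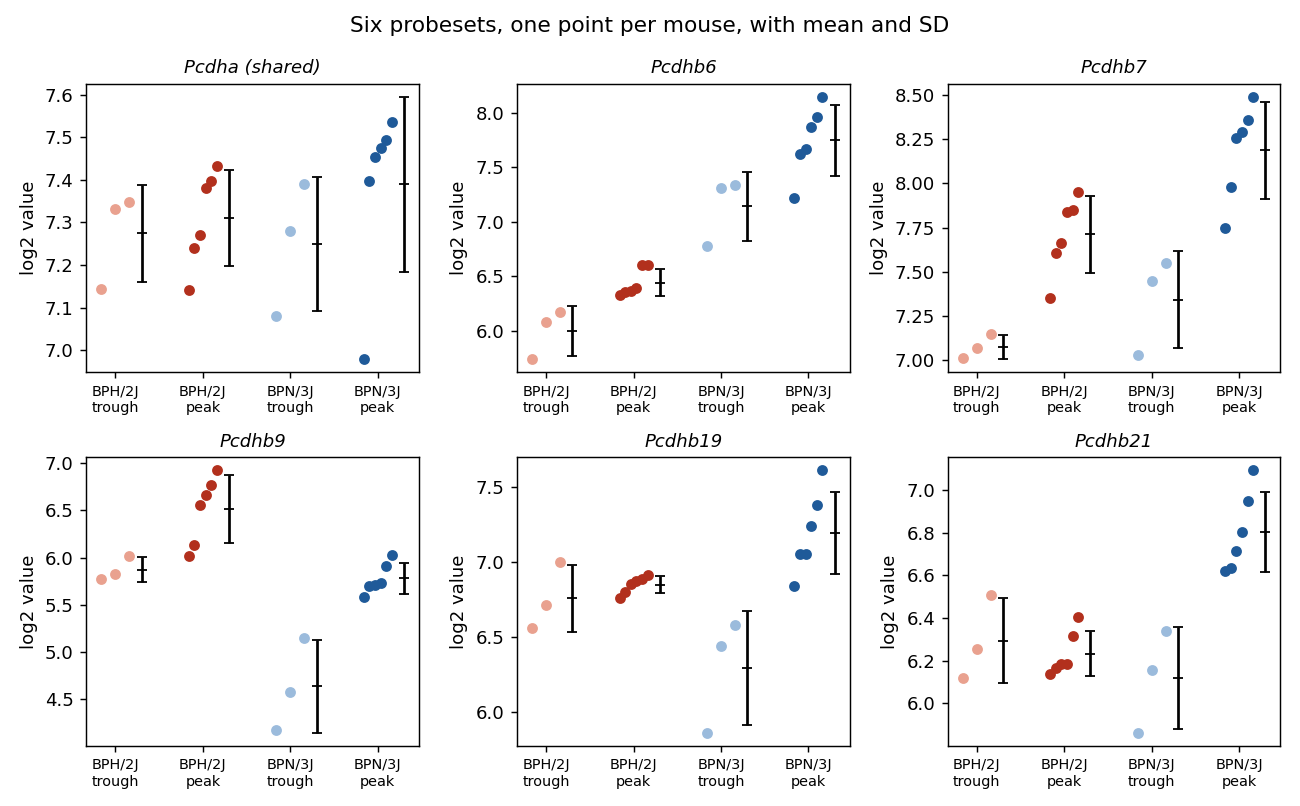
Log2 value per mouse (points) with group mean and SD (bars) of the shared alpha probeset and of 5 beta genes in the 4 groups; vertical axes differ between panels and do not start at 0. *Pcdhb6* separates the strains, *Pcdhb7* separates the times in both strains, and in *Pcdhb21* the BPN/3J ‘peak’ mice (6.62 to 7.09) lie above all others.

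The median beta probeset varied more between mice of a group than the median probeset. At ‘trough’ BP the median SD over the 22 was 0.18 (BPH/2J) and 0.21 (BPN/3J), against 0.12 and 0.17 over all probesets. At ‘peak’ BP it was 0.20 and 0.27, against 0.19 and 0.20. *Pcdhb13* had the largest SD, 0.50 in the BPN/3J ‘peak’ mice, where mouse 10 was at 5.42 and the highest at 6.84. BPN/3J ‘peak’ mouse 11 held the highest value of its group in every probeset from *Pcdhb10* to *Pcdhb19*, for example 8.14 in *Pcdhb10* against a group median of 7.27. Its beta mean of 7.43 was the highest of all mice. It had the lowest array weight (0.30) and the lowest means of hypothalamic (7.40) and neuronal markers (11.12). Mouse 10 was close in hypothalamic markers, at 7.43. Without mouse 11, 15 beta probesets rose in BPN/3J, and the median beta *d* went from -0.31 to -0.23. The part of its tissue or array quality was not tested.

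Genes beside the clusters changed with time and gave no calls between the strains. Of 18 measured neighbours of the locus 0 passed in limma between the strains at either time or in *d*, and 0 had an unadjusted p under 0.05 there. Over time 3 rose and 1 fell in BPH/2J, beside 4.25% and 4.39% of all probesets, and 6 rose and 3 fell in BPN/3J, beside 12.9% and 12.4%. *Ndufa2*, a subunit of mitochondrial complex I, rose by 0.94 and 1.09 in BPH/2J and BPN/3J, and *Hars2*, the mitochondrial histidyl-tRNA synthetase, by 0.42 and 0.62. *Slc25a2* and *Taf7*, named for their position between *Pcdhb22* and the gamma cluster, went opposite ways in BPN/3J. *Taf7*, a subunit of the general transcription factor TFIID, rose by 0.67 (adjusted p = 0.0241), and *Slc25a2*, a mitochondrial ornithine carrier, fell by 0.33 (adjusted p = 0.0382). *Arap3* fell by 0.43 in BPH/2J.

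Other cadherins and the factors that act on the locus likewise gave 0 calls between the strains and in *d*. At an unadjusted p under 0.05 each of these lists had at most 3 genes in a direction between the strains. The 3 were regulators, of 23, higher in BPH/2J at ‘trough’ BP, beside 5.29% of all probesets. In *d* 4 of 23 regulators, 3 of 19 classical cadherins and 1 of 12 non-clustered protocadherins were lower, beside 4.56%. As higher there was 1 classical cadherin, beside 3.75%. Median *d* was -0.22 for regulators, -0.16 for classical cadherins and for non-clustered protocadherins and -0.10 for signalling partners, against -0.01 over all probesets. Over time the share of all probesets that passed was 4.25% as higher and 4.39% as lower in BPH/2J and 12.9% and 12.4% in BPN/3J. Of 12 non-clustered protocadherins *Pcdh7*, *Pcdh17* and *Pcdh19* fell in BPH/2J (by 0.40, 0.34 and 0.45), and in BPN/3J *Pcdh20* rose by 0.63 while *Pcdh12* and *Pcdh17* fell. Of 19 classical cadherins, calcium-dependent adhesion molecules, *Cdh4* fell in BPH/2J by 0.43, and 5 rose and 3 fell in BPN/3J, among them *Cdh7* (0.54), *Cdh18* (0.51) and *Cdh10* (0.45). Of 23 regulators of the locus 5 fell and 0 rose in BPH/2J, and 4 rose and 4 fell in BPN/3J. The cohesin subunits *Smc3* (0.50) and *Stag2* (0.47), the cohesin release factor *Wapl* (0.45) and the DNA demethylase *Tet1* (0.55) rose in BPN/3J. These are all 4 regulators that rose there, while of the 4 that fell there only *Trim28* is named. The co-repressor *Trim28* fell by 0.42 in BPH/2J and 0.44 in BPN/3J, and the DNA methyltransferase *Dnmt3a* (by 0.46) and *Tet3* (by 0.51) fell in BPH/2J. Of 17 signalling partners *Cyfip2*, of the actin-regulating WAVE complex, which alpha protocadherins can bind, fell in both strains, by 0.45 and 0.35, and *Brk1* of the same complex rose in BPN/3J by 0.40.

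Markers of other cells moved with time too, and their part in the beta results was not tested. Of all probesets 4.25% rose and 4.39% fell in BPH/2J, and 12.9% rose and 12.4% fell in BPN/3J. The mean of 3 markers of oligodendrocyte precursors was 8.03 to 8.29 in the ‘trough’ mice and 7.67 to 7.98 in the ‘peak’ mice of both strains, with no overlap, and *Cspg4* and *Sox10* fell in each strain. The 10 neuronal markers gave 0 calls in BPH/2J, and in BPN/3J *Slc17a6* rose while *Tubb3*, *Slc32a1* and *Rbfox3* fell. Of 4 pituitary markers *Prl* and *Gh* fell in BPN/3J. Among 9 hypothalamic markers *Hcrt* and *Pmch* rose in BPH/2J, by 1.29 and 0.86. *Slc1a2* of 7 astrocyte markers, *Flt1* of 4 endothelial markers and *Csf1r* of 5 microglial markers fell in BPH/2J while *P2ry12* rose, and *Cldn5*, *Csf1r* and *Emx1* fell in BPN/3J while *Aif1* rose. Markers of oligodendrocytes (5), ependyma (3), choroid plexus (4), thalamus (4) and striatum (2) gave 0 calls over time. No marker list had a call between the strains or in *d*, where 0 of all probesets passed. Median *d* was 1.12 for pituitary markers, 0.51 for hypothalamic markers, 0.39 for 3 markers of cortex and hippocampus and -0.34 for oligodendrocytes. For the other marker lists it lay between -0.25 and 0.18, against -0.31 for the beta probesets and -0.01 over all probesets. In *d* 2 hypothalamic markers were higher at an unadjusted p under 0.05. Of the 9 hypothalamic markers 5 had an unadjusted p under 0.05 as higher in BPH/2J at ‘peak’ BP, where their mean ran from 7.84 to 8.71 per mouse in BPH/2J and from 7.40 to 8.50 in BPN/3J, and 2 of 4 pituitary markers did as lower in BPH/2J at ‘trough’ BP. Each other marker list had at most 1 such gene in a direction.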

How the data were processed

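Each of 18 arrays had measured hypothalamic RNA of 1 mouse. The log2 values deposited by the authors come from RMA and have 0 missing entries. For the authors' RMA and limma, versions are not given in the sources used. Groups were taken from the sample titles. Precision is limited by the number of arrays. Differences were fitted here in R 4.3.3 with limma 3.58.1 on all 18 arrays (14 residual and 2.94 prior degrees of freedom). Probesets were named by the platform annotation, and all 36 member symbols matched RefSeq (GRCm38.p6, used for names and gene order) by gene ID. Members and lists were chosen with earlier results of these data known. The members shown mouse by mouse were the 2 of each cluster with the smallest p in each comparison and those that the study lists. List genes were named where they passed, up to 3 for each list and comparison by smallest p. *Taf7*, *Slc25a2*, *Stag2*, *Wapl* and *Rbfox3* were named beyond this rule after their values were seen. The lists held neighbours, other cadherins, regulators, signalling partners and cell type markers. The fitting procedure was checked on simulated data. Plots were made with matplotlib 3.10.9 (Python 3.11.15). Mouse numbers were not treated as pairs: deviations of same-numbered mice of both strains correlated between -0.30 and 0.19 in 6 pairs.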

Additional observations from a re-analysis of the deposited data

Results flagged for a closer look

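Of 22 groups of values looked at, 1 held a mouse far from the others. Not every probeset was looked at in this way. In the shared alpha probeset BPN/3J ‘peak’ mouse 10 had a log2 value of 6.98, and the other 5 mice of the group lay between 7.40 and 7.54. The gap was 0.749 of the range of the group. Chance alone would mark about 1 in 20 groups. The same mouse had the lowest mean over the beta probesets of its group. Without it the alpha difference between the strains at ‘peak’ BP was -0.16, and that over time in BPN/3J was 0.22. In *Pcdhb15*, which is not among the members shown mouse by mouse, BPN/3J ‘peak’ mouse 11 was at 7.92. The other mice of its group lay between 7.10 and 7.29.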

How the results depend on the processing

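The alternatives were 12 in number, and several moved counts of beta calls. Of the 12, 2 reused the main fit and could not (probesets with 1 symbol only and 1 probeset per gene). The single call over time in BPH/2J became 2 with quantile normalization, 3 without dim probesets, 9 with array weights, 2 in a fit of these groups only, 8 with the lower-numbered ‘peak’ mice only (BPH/2J 4 to 7, BPN/3J 5 to 8), 0 with the higher-numbered only and 5 with a term for them. The 15 calls in BPN/3J became 3 with the higher-numbered mice only. That setting keeps only 2 ‘peak’ mice of each strain, BPH/2J 8 and 9 and BPN/3J 10 and 11. In it 1.29% of all probesets passed as higher over time in BPH/2J and 4.42% in BPN/3J, against 4.25% and 12.9%. Of the 22 beta differences over time in BPN/3J 20 were positive there. The 7 between the strains at ‘peak’ BP became 3 with arrays centred on their median, 3 with the lower-numbered and 1 with the higher-numbered mice. The 2 at ‘trough’ BP became 11 with array weights, 0 in a fit of these groups only and 0 with the higher-numbered mice. With array weights 10.6% of all probesets passed there as higher and 12.7% as lower, against 0.342% and 0.187% in the main fit. With the mouse number as a replicate block, over the 12 mice whose numbers the strains share, 1 probeset (*Pcdhb6*) passed at ‘peak’ and 0 at ‘trough’ BP. The time comparisons have no such fit, since numbers lie within a time. The 0 calls in *d* became 4 with array weights, all lower, where 1.44% of all probesets passed as lower. The median beta *d* became -0.53 with the higher-numbered mice. The sign of the alpha difference turned with the higher-numbered mice (-0.069 over time in BPH/2J, -0.062 in BPN/3J, 0.017 at ‘peak’ BP) and with quantile normalization at ‘trough’ BP (-0.0038). With the lower-numbered mice it passed over time in BPN/3J (0.24). The cause was not tested. With arrays centred on their median, 16.3% of all probesets passed as higher over time in BPN/3J and 7% as lower, against 12.9% and 12.4%, and 17 beta probesets rose.

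Leaving out each mouse in turn gave 0 to 4 calls over time in BPH/2J, 9 to 17 in BPN/3J, 3 to 8 at ‘peak’ BP, 0 to 2 at ‘trough’ BP, 0 in *d* and 2 to 8 by *aFD*. In these fits 1.1% to 4.91% of all probesets passed as higher over time in BPH/2J and 6.03% to 14.3% in BPN/3J. The median beta differences ran from 0.09 to 0.18, 0.51 to 0.70, -0.46 to -0.34, 0.0034 (without BPN/3J ‘trough’ mouse 1) to 0.14 and, in *d*, -0.36 to -0.23. The alpha differences ran from -0.030 to 0.073, 0.054 to 0.22, -0.16 to -0.045, -0.060 to 0.095 and -0.19 to -0.02. For single members, 37 results had 1079 values under all alternatives, of which 965 kept direction and side of the threshold, 94 no longer passed, 12 newly passed and 8 turned. Among the 1079 are settings that reused the main fit and fits without a mouse from outside the comparison. In these the fitted difference could not change, so the 965 is not a measure of stability. *Pcdhb6* at ‘peak’ BP passed in all its alternatives. A trend and robust prior moved no count by over 1.5 times. Probesets with 1 symbol only and 1 probeset per gene reused the main fit, so they could not move a beta count. Gamma medians had no value, and groups of 3 limit the ‘trough’ results.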
